A study of Mus musculus with 16 samples.

Results

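The genes that copy DNA and divide the cell were followed in cells that were washed from the peritoneum of mice with ovarian tumours and sorted as tumour-associated macrophages. The set was 40 genes given by symbol, and 39 of them were measured among the 18194 genes tested. Ccnb1 was not analysed here, because no probe set carried its symbol alone. Each gene is represented by 1 probe set, the brightest on average. Levels are log2 units of array intensity after quantile normalization over the 16 arrays, and every difference below is a difference of these log2 levels.

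The 16 Affymetrix mouse arrays formed 4 groups of 4, which were RbpjiΔEC mice and control mice, each with cells sorted as CCR2+ and as CCR2-. All mice were female C57BL/6N, were 8 to 12 weeks old when they received 1 mg tamoxifen once by mouth, and had ID8-luc cells, murine ovarian carcinoma cells carrying luciferase, put into the peritoneal cavity 3 weeks later. The tumours grew for 4 weeks. In RbpjiΔEC mice the induced deletion of Rbpj, through which Notch receptors act on their target genes, was in endothelial cells and not in the sorted cells, so the Rbpj level of these arrays does not check it. The driver of the deletion, the genotype of the control mice beyond that word, and whether each array came from its own animal are not given in the sources used here, so the p-values measure only the spread between these arrays, which may be technical.

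The sort was CD45+, CD11b+ and F4/80+, then CCR2+ or CCR2-, and the arrays labelled CCR2- did not carry the defining markers of that gate at the level of the others. Adgre1, which encodes F4/80, read 13.05 to 13.41 in the 8 arrays labelled CCR2+ and 8.88 to 9.48 in the 8 labelled CCR2-. Cd79a, a chain of the B cell receptor, read 7.35 to 7.84 in the arrays labelled CCR2+ and 12.53 to 12.93 in those labelled CCR2-. Ccr2 itself read 6.87 to 9.27 in the arrays labelled CCR2+ and 7.58 to 11.51 in those labelled CCR2-, so it goes against the labels. Below, CCR2+ and CCR2- are names of deposited labels only. The deposited intensities had array means of 821 to 827 under CCR2+ and 481 to 762 under CCR2-, so a difference between the labels cannot be told apart from a difference in how the columns were made. The number of arrays limits the precision throughout.

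A cell that enters division first loads the MCM helicase, encoded by Mcm2 to Mcm7, onto origins of replication with the help of Cdc6. Cyclin E, encoded by Ccne1 and Ccne2, starts S phase, while cyclin A, the B cyclins and Cdk1 drive mitosis, and CDK inhibitors hold these kinases back. Resident macrophages of the peritoneal cavity are known to renew by division in place, which depends on Csf1 signalling and on the transcription factor Gata6, whereas monocyte-derived macrophages come from the bone marrow. Many of these genes are switched on together by E2F factors at the start of S phase and by the MuvB complex with B-Myb and Foxm1 before mitosis.

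The promoters are shown because these genes are known as co-regulated, and because the members described below did not all move alike. RefSeq promoters (GRCm38.p6) were found for 32 of the 40 genes, and the 250 bases before the start were searched on both strands. The CCAAT box (CCAAT) was in 26 of 32, or 81.25%, against 34.5% of 27025 promoters of the same length. An E2F site (TTTGGCGC, TTTCGCGC, TTTCCCGC or TTTGCCGC) was in 5 of 32, or 15.6%, against 1.91%, and the 5 genes were Cdc6, Cdk1, Mcm5, Mcm6 and Mcm7. The cell cycle genes homology region (TTTGAA or TTCGAA), the letters bound by the MuvB complex, was in 11 of 32, or 34.4%, against 17.4%. In Mcm6, 2 E2F matches on opposite strands share bases. The 150 bases before the start of 4 members are given here 5′ to 3′ on the gene's strand, which is the minus strand for all 4, with motif matches in capitals. They lie at chr1:128359706-128359855 (Mcm6), chr10:69352913-69353062 (Cdk1), chr4:118437344-118437493 (Cdc20) and chr7:38107491-38107640 (Ccne1).
Mcm6: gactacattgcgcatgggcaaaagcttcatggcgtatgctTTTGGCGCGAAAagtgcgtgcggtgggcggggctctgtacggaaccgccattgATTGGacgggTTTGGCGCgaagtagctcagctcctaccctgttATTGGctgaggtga
Cdk1: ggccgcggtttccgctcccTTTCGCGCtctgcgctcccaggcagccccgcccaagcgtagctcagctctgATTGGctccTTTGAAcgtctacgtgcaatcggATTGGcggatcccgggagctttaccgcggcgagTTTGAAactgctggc
Cdc20: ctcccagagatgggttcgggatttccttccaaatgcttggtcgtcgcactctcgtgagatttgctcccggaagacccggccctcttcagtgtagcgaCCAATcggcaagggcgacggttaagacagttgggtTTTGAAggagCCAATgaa
Ccne1: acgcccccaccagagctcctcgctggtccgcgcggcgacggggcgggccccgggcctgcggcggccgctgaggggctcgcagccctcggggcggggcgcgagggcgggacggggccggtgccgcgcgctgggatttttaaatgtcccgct
Mcm6, a helicase subunit, has 3 E2F matches and 2 CCAAT boxes in this window, Cdk1, the mitotic kinase, has a match to each motif, and Cdc20, which activates the anaphase promoting complex, has CCAAT boxes and 1 homology region match. The window of Ccne1 holds none of these letters.

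One array stood apart from the rest of its group in nearly all members, and the spread of that group rests on it. The fourth CCR2+ Control array was the highest of its 4 in 35 of 39 members, while it was the highest in 30.6% of all genes. Its members lay a median of 0.89 above the mean of the other 3 arrays of the group, against 0.02 over all genes, and 29 of 39 lay more than 0.5 above. Helicase genes were among the farthest, with Mcm5 at 10.68 against a mean of 8.99 in the other 3 arrays, and Mcm7 at 11.57 against 9.89. Top2a, which encodes the topoisomerase that untangles replicated chromosomes, read 9.97 against 8.28, and Cdk1 read 9.91 against 8.43. All 10 licensing and fork genes, all 3 nucleotide supply genes and 10 of 11 spindle and kinetochore genes were highest there. The 4 members that were not highest were Kif20a, Ccne2, Cdc20 and Foxm1, and Foxm1, a transcription factor of the mitotic genes, was 0.11 below the other 3. The count was 36 of 39 with median centring and 35 of 39 with the deposited log2 values.

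Genes of the same processes outside the member list were also high in that array. Of 27 other replication genes 24 were highest there, and of 33 other mitotic genes 27 were. CDK inhibitors were highest there in 1 of 7 and macrophage proliferation regulators in 0 of 11. Markers of other cells moved with it in part. The summed intensity of 12 epithelial and mesothelial markers was 2971 in that array and 2107 to 2488 in the other 3, and 7 of the 12 were highest there. Epcam, the epithelial adhesion gene, read 7.27 there and 6.96 to 7.14 in the other 3. These values are all near the 6.35 to 6.51 of a bacterial trp control that mouse RNA should not bind. The summed intensity of 13 large peritoneal macrophage markers was 91934 there and 97637 to 103046 in the others, and 8 of the 13 were lowest there. Of 11 B cell markers 2 were highest there, and the signal of the 18S ribosomal RNA control, 13.5, was the highest of the 16 arrays. The part of these in the result was not tested. The fourth CCR2- Control array was also the highest of its group in 22 of 27 other replication genes and 20 of 33 other mitotic genes. So it was in 7 of 12 epithelial and mesothelial markers, where 31.5% of all genes were highest in it. Unlike in the fourth CCR2+ Control array, 10 of the 13 large peritoneal macrophage markers were highest there.

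**Figure D1:**
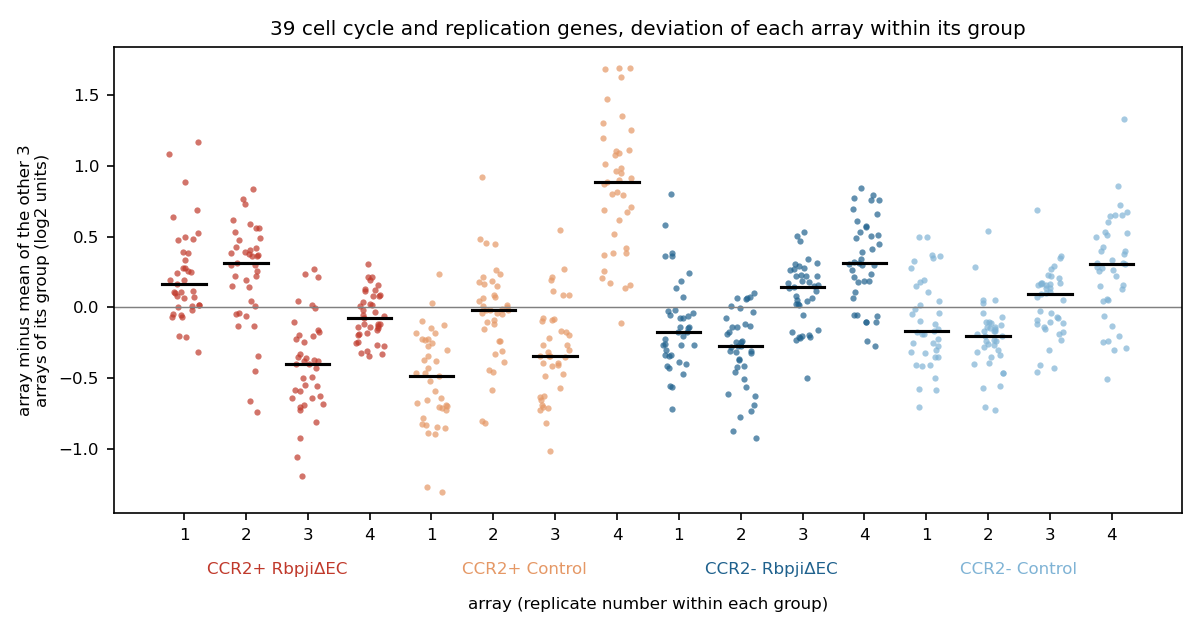
Each point is 1 of 39 members in 1 array, drawn as its log2 level minus the mean of the other 3 arrays of the same group (vertical axis, log2 units). Arrays are grouped as CCR2+ RbpjiΔEC, CCR2+ Control, CCR2- RbpjiΔEC and CCR2- Control along the horizontal axis, bars are medians over the members, and the fourth CCR2+ Control array has a median of 0.89.

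Members varied more between arrays of a group than most genes did. Their median SD was 0.290 in the CCR2+ RbpjiΔEC arrays and 0.499 in the CCR2+ Control arrays, where it was 0.251 without the fourth array. Under CCR2- it was 0.264 in the RbpjiΔEC arrays and 0.271 in the Control arrays. Over all genes the median SD was 0.146 to 0.169 in the 4 groups. In the CCR2+ RbpjiΔEC arrays the second array was the highest in 22 of 39 members (34.6% of all genes) and the third was the lowest in 29 (22.4% of all genes). Under CCR2- the fourth array was the highest in 28 of 39 members of the RbpjiΔEC group (21.2% of all genes). In the Control group it was the highest in 24 of 39 (31.5% of all genes). With the deposited log2 values the count in the Control group was 17 (12.5% of all genes), and with median centring 32 (41.7% of all genes). Within each group, then, the members tended to be high or low in the same arrays.

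The comparison of RbpjiΔEC with control mice within each label asks whether loss of Rbpj in endothelial cells goes with a different cell cycle program in these cells. Under CCR2+, 0 of 39 members were higher and 0 lower at limma adjusted p under 0.05, where 0% of all 18194 genes were called. No member had an unadjusted p under 0.05, against 830 of all genes, or 4.56%. The estimate was negative for 28 of 39 members, against 52.5% of all genes, and the members' median was −0.12, against −0.008 over all genes. Without the fourth CCR2+ Control array the sign turned, with 31 of 39 members positive and a median of 0.10, 1 member at an unadjusted p under 0.05 and again 0 called. In 0 of 39 members did the groups separate, where 3.39% of all genes had groups that did not overlap.

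Licensing and fork genes had the lowest estimates under CCR2+. Mcm5, a helicase subunit, read 9.18, 9.07, 8.10 and 8.80 in the RbpjiΔEC arrays and 8.88, 8.81, 9.28 and 10.68 in the control arrays. The difference was −0.63 (SE 0.38, 95% interval −1.43 to 0.18, limma adjusted p = 0.966), and it was −0.20 without the fourth control array. The 2 groups overlapped and the fourth control array lay above all others. Cdc6, which loads the helicase, read 7.93, 8.02, 7.59 and 7.96 in the RbpjiΔEC arrays and 7.88, 8.31, 8.02 and 9.08 in the control arrays, a difference of −0.45 (SE 0.23, 95% interval −0.94 to 0.04, limma adjusted p = 0.966). Uhrf1, which helps to copy DNA methylation at the fork, differed by −0.43 (95% interval −1.20 to 0.34) and by −0.02 without the fourth control array. Pcna, the sliding clamp of the polymerase, read 12.43 to 12.75 in the RbpjiΔEC arrays and 12.37 to 12.85 in the control arrays, and its interval was narrow (difference 0.02, 95% interval −0.22 to 0.26).

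Nucleotide supply and S phase cyclin genes gave smaller estimates. Rrm1 and Rrm2, the subunits of ribonucleotide reductase, differed by −0.16 and −0.09, and Tyms, thymidylate synthase, by −0.17. Ccne1 and Ccne2 differed by 0.05 and 0.25, and Ccna2, cyclin A, by 0.27 (95% interval −0.42 to 0.97), the highest estimate of the 39. None of these passed the test.

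Mitotic genes lay on both sides of 0. Mki67, the gene of the Ki-67 antigen that marks cycling cells, read 10.65, 10.31, 9.98 and 10.17 in the RbpjiΔEC arrays and 9.70, 10.21, 9.997 and 10.35 in the control arrays. Its difference was 0.21 (SE 0.24, 95% interval −0.30 to 0.73, limma adjusted p = 0.966), and the groups overlapped. Top2a read 8.70, 8.83, 7.89 and 8.21 in the RbpjiΔEC arrays and 8.19, 8.70, 7.94 and 9.97 in the control arrays, and its difference of −0.29 became 0.13 without the fourth control array. With all arrays its 3 probe sets ranged from −0.29 to 0.08. Kinases ran from Aurkb, of the chromosomal passenger complex, at −0.32 to Plk1, polo-like kinase 1, at 0.18. Checkpoint and anaphase genes ran from Bub1 at −0.25 to Ube2c at 0.15, and the 11 spindle and kinetochore genes from Kif11, a mitotic motor, at −0.18 to Nusap1, a spindle protein, at 0.07.

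Under CCR2- the RbpjiΔEC and control arrays were closer. Again 0 of 39 members were higher and 0 lower, with 0% of all genes called and 2.14% of all genes at an unadjusted p under 0.05. The members' median was 0.01, against −0.002 over all genes, and 19 were negative, against 50.9% of all genes. No member had groups that did not overlap, where 1.56% of all genes did. Top2a had the highest estimate, with 8.25, 8.33, 9.19 and 9.39 in the RbpjiΔEC arrays and 7.98, 8.30, 8.63 and 8.74 in the control arrays, a difference of 0.38 (SE 0.38, 95% interval −0.42 to 1.18, limma adjusted p = 1). The 3 Top2a probe sets ranged from −0.10 to 0.38 there. The lowest was Tpx2, a spindle assembly factor, at −0.24 (95% interval −0.74 to 0.26). Uhrf1 differed by 0.25, Birc5, which encodes survivin, by 0.20, Bub1 by 0.16 and Mki67 by 0.09. The helicase genes lay within −0.12 (Mcm3) and 0.02 (Mcm6). Differences of both signs were within the spread between arrays.

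The genotype difference was then compared between the labels. No member passed the interaction test (0% of all genes called, 3.05% at an unadjusted p under 0.05), and the members' median was −0.10, against −0.007 over all genes. The lowest estimates were Uhrf1 at −0.68 (95% interval −1.77 to 0.41), Top2a at −0.67 and Mcm5 at −0.64 (limma adjusted p = 0.999 each). Without the fourth CCR2+ Control array the median was 0.12. Intervals of this width leave differences of over 1 log2 unit undetectable for the most variable members.

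**Figure D2:**
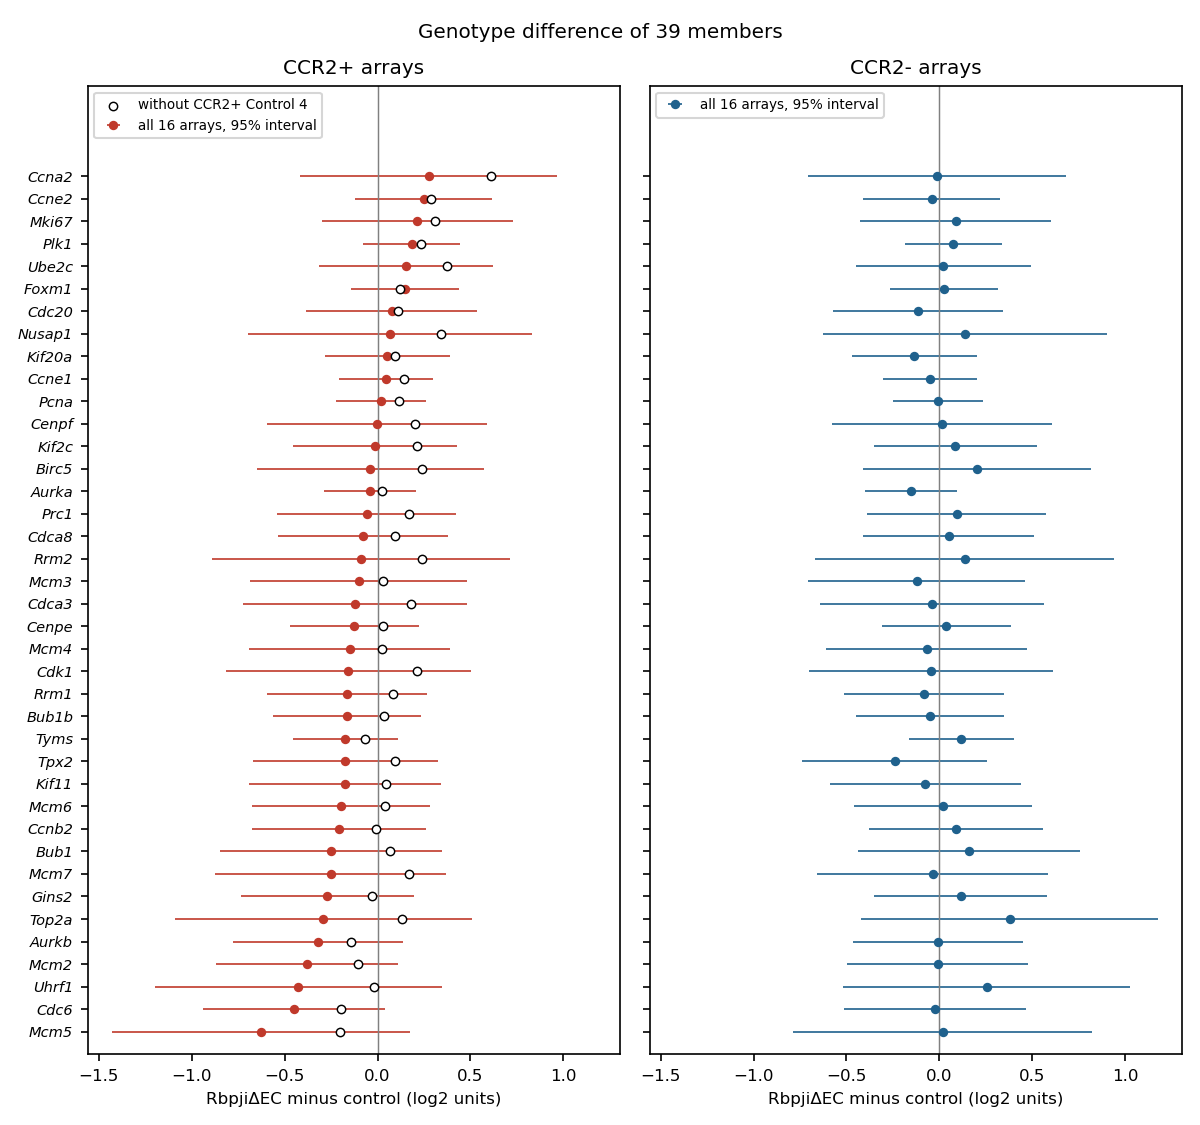
Difference in log2 level between RbpjiΔEC and control arrays for each of 39 members (horizontal axis) with its 95% limma interval, under CCR2+ on the left and under CCR2- on the right. Hollow points are the differences without the fourth CCR2+ Control array, which raised nearly all estimates under CCR2+, Mcm5 to −0.20 and Top2a to 0.13.

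The comparison of the labels within each genotype asks what separates the sorted fractions. Among the RbpjiΔEC arrays, 1 of 39 members was higher under CCR2+, where 18.1% of all genes were, and 9 were lower, where 21% of all genes were (limma adjusted p under 0.05). That is 25.6% of the members, below the 39.1% of all genes, a gap that was not tested. Among the control arrays 2 members were higher, with 19.4% of all genes, and 7 lower, with 21.4% of all genes, which is 23.1% of the members and 40.8% of all genes. Groups that did not overlap were found for 10 members in RbpjiΔEC mice (38.2% of all genes) and 5 in control mice (37.4% of all genes). The members' median was −0.28 in RbpjiΔEC mice and −0.21 in control mice, against −0.03 over all genes in each. Ccne1, Mcm6, Mcm7, Rrm1, Aurkb and Kif20a were lower in both genotypes, Tyms was higher in both, and 27 of 39 were called in neither. Of all 18194 genes, 3147 were lower in both, 2858 were higher in both and 9671 were called in neither. In bulk samples, fewer cells of a type and less RNA per cell cannot be told apart.

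Marker genes of other cells moved with these differences. The summed intensity of 11 B cell markers was 3339 to 3743 in the CCR2+ RbpjiΔEC arrays and 62234 to 66108 in the CCR2- RbpjiΔEC arrays, and 3476 to 3770 in the CCR2+ Control arrays and 62467 to 64752 in the CCR2- Control arrays. All 11 were lower under CCR2+ in both genotypes, and Ms4a1, the gene of CD20, read 6.52 to 7.66 under CCR2+, near the 6.35 to 6.51 of a bacterial trp control that mouse RNA should not bind. The 13 large peritoneal macrophage markers summed to 91934 to 103046 under CCR2+ and 4745 to 5961 under CCR2-. The 12 epithelial and mesothelial markers summed to 1854 to 2971 under CCR2+ and 2362 to 3879 under CCR2-. The 9 T and NK cell markers summed to 1083 to 1186 under CCR2+ and 8103 to 9528 under CCR2-. Of these 9, 3 were called lower in RbpjiΔEC and 2 in control mice (21% and 21.4% of all genes). The 8 dendritic cell markers summed to 2612.5 to 4788 under CCR2+ and 5812 to 9687 under CCR2-. The 8 neutrophil markers summed to 1030 to 3264 under CCR2+ and 955 to 6526 under CCR2-. The part of these cells in the members' differences was not tested.

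Cyclin E1 was the member with the largest difference between the labels. Ccne1 read 8.29, 8.16, 8.23 and 8.11 in the CCR2+ RbpjiΔEC arrays and 10.62, 10.42, 10.17 and 10.17 in the CCR2- RbpjiΔEC arrays. In control mice it read 7.93, 8.14, 8.10 and 8.44 under CCR2+ and 10.54, 10.29, 10.31 and 10.44 under CCR2-. The groups were far apart in both genotypes, with no overlap. The difference was −2.15 (SE 0.12, limma adjusted p = 2.1e-10), or 4.43-fold lower, in RbpjiΔEC mice and −2.24 (SE 0.12, limma adjusted p = 1.17e-10), or 4.74-fold lower, in control mice. Both Ccne1 probe sets gave it, at −2.15 and −2.17 in RbpjiΔEC mice and −2.24 and −2.25 in control mice, and it ranged from −2.16 to −1.68 in RbpjiΔEC and from −2.25 to −1.96 in control mice over other scalings, filters and models. Its close relative Ccne2, in contrast, differed by −0.05 in RbpjiΔEC and −0.34 in control mice and did not pass the test.

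Of the 6 helicase genes, Mcm6 and Mcm7 were called lower under CCR2+ in both genotypes in the main setting, by less than Ccne1. Mcm6 read 10.28, 9.83, 9.60 and 9.99 in the CCR2+ RbpjiΔEC arrays and 10.86, 10.91, 10.75 and 11.14 in the CCR2- RbpjiΔEC arrays, a difference of −0.99 (SE 0.23, limma adjusted p = 0.00199). In control mice it read 9.96, 9.51, 10.19 and 10.83 under CCR2+ and 10.60, 10.94, 10.77 and 11.30 under CCR2-, a difference of −0.78 (limma adjusted p = 0.0106). The groups were separate in RbpjiΔEC mice and overlapped in control mice through the fourth CCR2+ array. Mcm7 read 10.01, 10.38, 9.91 and 9.94 in the CCR2+ RbpjiΔEC arrays and 10.85, 10.95, 11.22 and 11.19 in the CCR2- RbpjiΔEC arrays (difference −0.99, limma adjusted p = 0.0124). Among control mice it read 9.77, 10.07, 9.84 and 11.57 under CCR2+ and 10.87, 10.98, 11.03 and 11.48 under CCR2- (difference −0.78, limma adjusted p = 0.0439). Without the fourth CCR2+ Control array the control difference of Mcm7 was −1.20, and leaving out any 1 array other than that one, CCR2+ RbpjiΔEC 2 or CCR2- Control 1 ended its control call, with adjusted p up to 0.142. The 3 Mcm6 probe sets ranged from −0.99 to 0.08 in RbpjiΔEC mice and the 4 of Mcm7 from −0.99 to −0.24, and with the mean of its probe sets Mcm7 was called in neither genotype.

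The other licensing genes did not all go the same way. Mcm2 was lower in RbpjiΔEC mice, with 8.72, 8.69, 8.46 and 8.44 under CCR2+ and 9.01, 9.34, 9.50 and 9.61 under CCR2- (difference −0.79, limma adjusted p = 0.0119), and differed by −0.41 in control mice (adjusted p = 0.173). Mcm3, Mcm4 and Mcm5 differed by −0.63, −0.54 and −0.57 in RbpjiΔEC mice and by −0.64, −0.46 and 0.07 in control mice. None of them passed the test in the main setting. The 5 Mcm3 probe sets ranged from −0.64 to 0.31 in control mice, where only the one used was negative. With the mean of its probe sets Mcm4 was called lower, at −0.75 in RbpjiΔEC and −0.63 in control mice (limma adjusted p = 0.00414 and 0.0124, in that order). Uhrf1 read 8.79, 8.15, 7.19 and 7.79 in the CCR2+ RbpjiΔEC arrays and 9.48, 9.26, 9.56 and 9.69 in the CCR2- RbpjiΔEC arrays, and these groups were separate (difference −1.52, SE 0.36, limma adjusted p = 0.003). It differed by −0.84 in control mice (adjusted p = 0.08). Cdc6 went the other way, with 7.88, 8.31, 8.02 and 9.08 in the CCR2+ Control arrays and 7.33, 7.41, 7.14 and 7.90 in the CCR2- Control arrays, a difference of 0.88 (SE 0.23, limma adjusted p = 0.00573). In RbpjiΔEC mice it differed by 0.45 (adjusted p = 0.144). Cdc6 had a group mean within 1 log2 unit of the trp control, and its control call ended without CCR2- Control 1 and 3 (0.67, limma adjusted p = 0.0914). Pcna differed by 0.17 in RbpjiΔEC and 0.14 in control mice, and Gins2, a helicase cofactor, by −0.27 in RbpjiΔEC and 0.12 in control mice, neither past the test on this scale. Pcna was called higher in both genotypes on the other scales, by 0.52 in RbpjiΔEC and 0.68 in control mice with median centring (limma adjusted p = 0.0476 and 0.0108, in that order) and by 0.81 in RbpjiΔEC and 0.73 in control mice with the deposited log2 values (limma adjusted p = 0.00082 and 0.00249, in that order).

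Genes of nucleotide supply split. Rrm1 read 9.19, 9.36, 9.004 and 9.20 in the CCR2+ RbpjiΔEC arrays and 9.78, 9.83, 10.06 and 10.23 in the CCR2- RbpjiΔEC arrays (difference −0.79, SE 0.20, limma adjusted p = 0.00489). In control mice it read 9.03, 9.17, 9.11 and 10.09 under CCR2+ and 9.75, 10.10, 9.94 and 10.45 under CCR2- (difference −0.71, limma adjusted p = 0.0095, and 0.121 with the mean of its probe sets). The groups were separate in RbpjiΔEC mice and met in control mice through the fourth CCR2+ array. Tyms instead was higher under CCR2+, with 7.57, 7.73, 7.93 and 7.67 in the CCR2+ RbpjiΔEC arrays and 7.28, 7.34, 7.32 and 7.21 in the CCR2- RbpjiΔEC arrays (difference 0.44, SE 0.13, limma adjusted p = 0.015). In control mice it read 7.82, 7.82, 7.73 and 8.21 under CCR2+ and 6.97, 7.58, 7.15 and 6.99 under CCR2- (difference 0.73, SE 0.13, limma adjusted p = 0.000294). The Tyms groups did not overlap in either genotype, but its 4 probe sets ranged from 0.06 to 0.44 in RbpjiΔEC and from −0.04 to 0.73 in control mice, its CCR2- mean lay within 1 log2 unit of the trp control, and without CCR2+ RbpjiΔEC 3 its RbpjiΔEC difference was 0.37 (adjusted p = 0.0538). Rrm2 differed by −0.86 in RbpjiΔEC and −0.64 in control mice and did not pass the test.

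**Figure D3:**
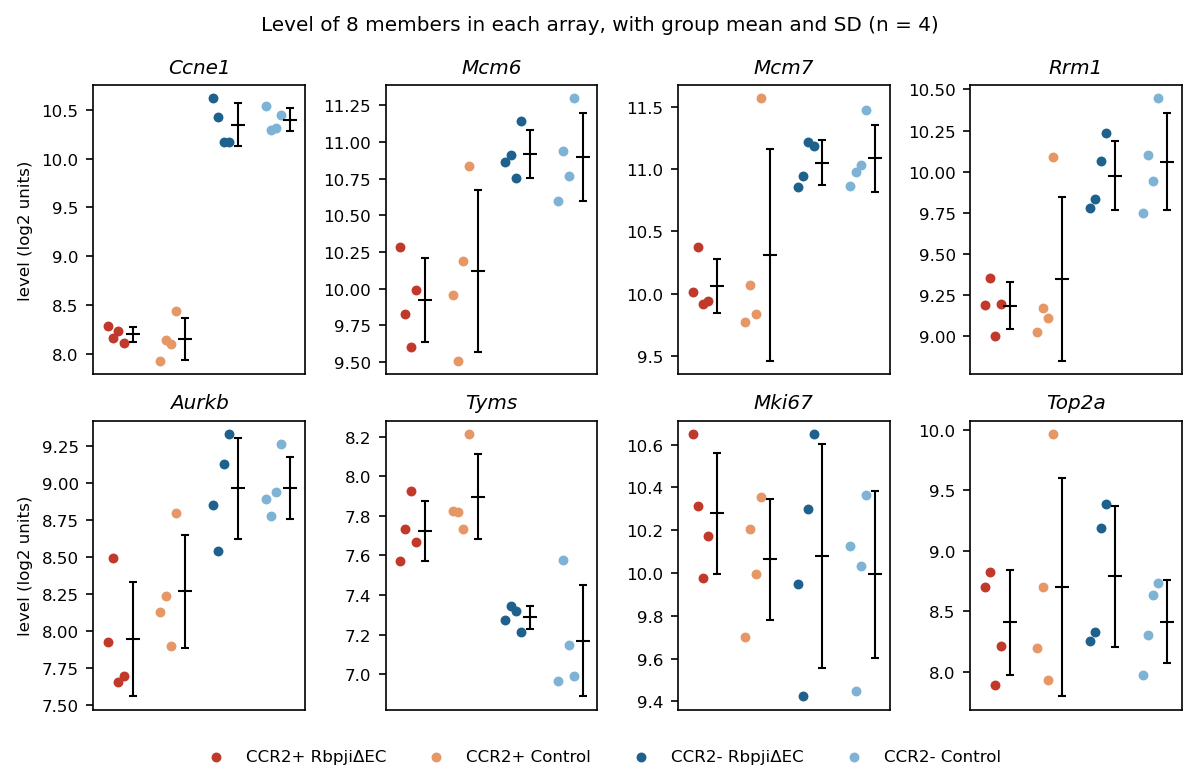
Log2 level of 8 members in each of the 16 arrays (vertical axis, with its own scale in each panel), grouped as CCR2+ RbpjiΔEC, CCR2+ Control, CCR2- RbpjiΔEC and CCR2- Control. Points are arrays, black bars are the group mean and SD (n = 4); Ccne1 lies near 8.2 under CCR2+ and 10.4 under CCR2-, while Mki67 and Top2a overlap in all groups.

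Among the mitotic members, calls were few. Aurkb read 7.93, 8.49, 7.66 and 7.70 in the CCR2+ RbpjiΔEC arrays and 8.85, 8.54, 9.13 and 9.33 in the CCR2- RbpjiΔEC arrays (difference −1.02, SE 0.22, limma adjusted p = 0.00111). For control mice the values were 8.13, 8.24, 7.90 and 8.80 under CCR2+ and 8.89, 8.78, 8.94 and 9.27 under CCR2- (difference −0.70, limma adjusted p = 0.0152, and 0.0558 without CCR2+ Control 3). The RbpjiΔEC groups were separate and the control groups met through the fourth CCR2+ array. Kif20a, a motor of cytokinesis, read 8.87, 8.98, 8.37 and 8.76 in the CCR2+ RbpjiΔEC arrays and 9.42, 9.29, 9.08 and 9.16 in the CCR2- RbpjiΔEC arrays (difference −0.49, limma adjusted p = 0.0204). Its control arrays read 8.60, 8.85, 8.50 and 8.83 under CCR2+ and 9.65, 8.94, 9.30 and 9.61 under CCR2- (difference −0.68, limma adjusted p = 0.00232). Neither genotype's groups overlapped, but the RbpjiΔEC call ended without CCR2+ RbpjiΔEC 3 (adjusted p = 0.0792) or CCR2- RbpjiΔEC 1 (adjusted p = 0.0617).

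Further calls held in 1 genotype only in the main setting, and the interaction passed the test for none of these members. Cdc20 was lower in control mice, with 8.13, 8.29, 7.34 and 8.05 under CCR2+ and 8.50, 8.54, 8.80 and 8.67 under CCR2- (difference −0.67, limma adjusted p = 0.0195), and differed by −0.48 in RbpjiΔEC mice (adjusted p = 0.0927). Its control call ended without CCR2+ Control 3 (adjusted p = 0.0751) or CCR2- Control 3 (adjusted p = 0.0555). With the mean of its probe sets Cdc20 was also called lower in RbpjiΔEC mice (−0.39, limma adjusted p = 0.015). Cdca8, which encodes borealin of the chromosomal passenger complex, was lower in RbpjiΔEC mice (difference −0.65, limma adjusted p = 0.0243), a call that ended without CCR2+ RbpjiΔEC 3 (adjusted p = 0.0935) or CCR2- RbpjiΔEC 4 (adjusted p = 0.0908), and its 3 probe sets ranged from −0.65 to 0.05.

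The genes most used to mark cycling cells did not pass the test between the labels on the quantile normalized scale, but Mki67 did in RbpjiΔEC mice on the deposited log2 scale. The CCR2+ values of Mki67 are given above. It read 9.95, 9.42, 10.30 and 10.65 in the CCR2- RbpjiΔEC arrays and 10.13, 9.45, 10.03 and 10.37 in the CCR2- Control arrays, and its differences between the labels were 0.20 in RbpjiΔEC (95% interval −0.32 to 0.71) and 0.07 in control mice (95% interval −0.44 to 0.59). With the deposited log2 values it was higher under CCR2+ by 0.77 in RbpjiΔEC mice (limma adjusted p = 0.00861), where the median of all genes was 0.23, and differed by 0.48 in control mice (adjusted p = 0.119). Top2a differed by −0.38 in RbpjiΔEC and 0.29 in control mice, Cdk1 by 0.23 in RbpjiΔEC and 0.34 in control mice, Ccna2 by −0.35 in RbpjiΔEC and −0.64 in control mice, and Plk1 by −0.20 in RbpjiΔEC and −0.31 in control mice. The 3 Top2a probe sets ranged from −0.45 to 0.04 in RbpjiΔEC and from −0.55 to 0.29 in control mice. Aurka differed by 0.11 in RbpjiΔEC and −0.0036 in control mice, Foxm1 by −0.08 in RbpjiΔEC and −0.21 in control mice, and Ccnb2, a B cyclin, by −0.09 in RbpjiΔEC and 0.20 in control mice. The checkpoint gene Bub1 differed by −0.12 in RbpjiΔEC and 0.29 in control mice, Bub1b by 0.07 in RbpjiΔEC and 0.18 in control mice, and Ube2c, the ubiquitin-conjugating partner of the anaphase promoting complex, by 0.04 in RbpjiΔEC and −0.09 in control mice. Kif2c, a microtubule depolymerase, differed by 0.35 in RbpjiΔEC and 0.45 in control mice. Tpx2 differed by −0.34 in RbpjiΔEC and −0.41 in control mice, Prc1, which bundles the central spindle, by −0.53 in RbpjiΔEC and −0.38 in control mice, and Nusap1 by −0.34 in RbpjiΔEC and −0.27 in control mice. Cenpe and Cenpf, of the kinetochore, Kif11, Birc5 and Cdca3 lay within −0.28 and 0.22. None of these 20 members passed the test in either genotype on the quantile normalized scale in the main setting. With the mean of its probe sets Tpx2 was called lower, at −0.31 in RbpjiΔEC and −0.34 in control mice (limma adjusted p = 0.0247 and 0.0151, in that order). Without CCR2+ Control 4, Ccna2, Plk1, Tpx2 and Prc1 were called lower in control mice, and Prc1 in RbpjiΔEC mice. With the deposited log2 values, where the median of all genes was 0.23, Mki67, Aurka (0.43, limma adjusted p = 0.0391) and Kif2c (0.57, limma adjusted p = 0.0391) were called higher in RbpjiΔEC mice. Kif2c had a group mean within 1 log2 unit of the trp control. On the quantile normalized scale its 4 probe sets ranged from −0.05 to 0.35 in RbpjiΔEC mice, and the 2 of Aurka from −0.07 to 0.11.

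The scale on which the labels were compared changed many of these calls. With median centring the counts were 2 higher and 3 lower in RbpjiΔEC mice (19.4% and 15.6% of all genes) and 3 higher and 3 lower in control mice (24.2% and 14.3%). With the deposited log2 values they were 6 higher and 3 lower in RbpjiΔEC mice (31.4% and 6.56%) and 3 higher and 1 lower in control mice (25.3% and 9.49%). The median over all genes was then 0.23 in RbpjiΔEC mice and 0.03 in control mice, and the members' median lay 0.14 and 0.08 below it. Ccne1 was lower and Tyms higher in both genotypes under both scalings, and Uhrf1 and Aurkb in RbpjiΔEC mice and Cdc6 in control mice also kept their calls. Calls were gained too, all of them higher under CCR2+. Pcna gained them in both genotypes under both scalings, and Cdc6 (0.70, limma adjusted p = 0.0127), Aurka, Kif2c and Mki67 gained them in RbpjiΔEC mice with the deposited log2 values. The calls of Mcm2, Mcm6, Mcm7, Rrm1 and Cdca8 were lost under both, as were those of Kif20a in RbpjiΔEC mice and Aurkb in control mice, and those of Cdc20 and Kif20a in control mice were lost with the deposited log2 values. Leaving out the fourth CCR2+ Control array raised the control count to 15 lower and 2 higher members (37.9% of all genes called), with Mcm2, Uhrf1, Rrm2, Ccna2, Plk1, Tpx2, Prc1 and Cdca8 added to the 7, and leaving out CCR2+ Control 3 reduced the lower count to 4.

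**Figure D4:**
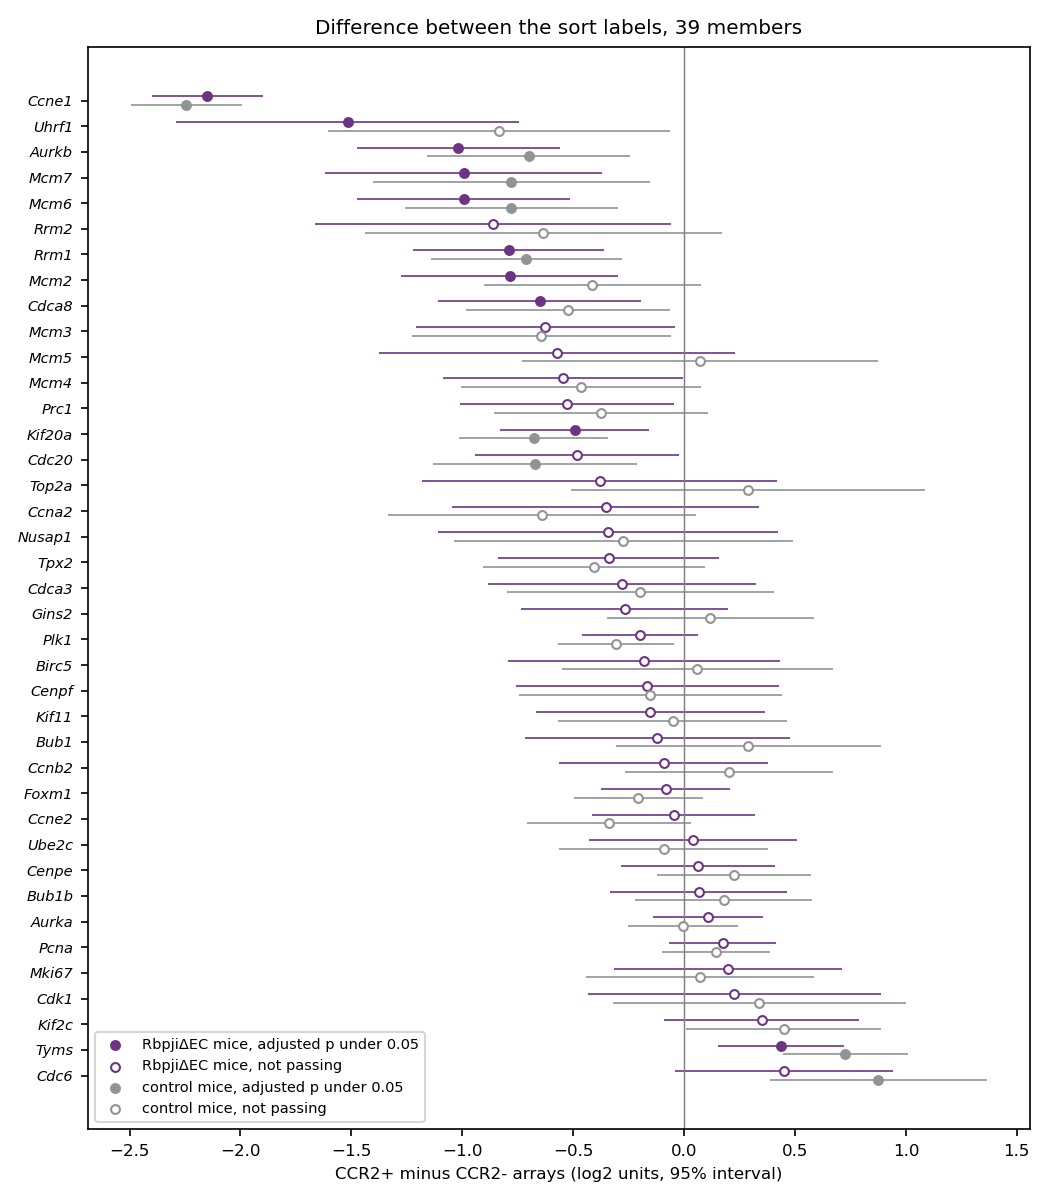
Difference in log2 level between the arrays labelled CCR2+ and CCR2- for each of 39 members (horizontal axis, log2 units) with 95% limma intervals, in RbpjiΔEC mice (purple) and control mice (grey). Filled points passed limma adjusted p under 0.05; Ccne1 stands apart at −2.15 and −2.24, and Tyms and Cdc6 lie at the other end.

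Among the genes that gate entry into the cycle, cyclin D2 was far lower and Cdk6 higher under CCR2+. Of 6 D cyclins and early kinases, 3 were higher and 2 lower under CCR2+ in RbpjiΔEC mice and 2 higher and 2 lower in control mice, which is 83.3% and 66.7% called, beside 39.1% and 40.8% of all genes. Ccnd2, cyclin D2, read 8.64, 8.90, 8.44 and 8.25 in the CCR2+ RbpjiΔEC arrays and 12.59, 12.67, 12.55 and 12.78 in the CCR2- RbpjiΔEC arrays, a difference of −4.09 (SE 0.15, limma adjusted p = 7.44e-13). The control difference was −4.01 (SE 0.15, limma adjusted p = 1.02e-12). Cdk6, a partner of D cyclins, was higher by 1.55 in RbpjiΔEC and 1.76 in control mice, and Ccnd1, cyclin D1, by 1.11 in RbpjiΔEC mice, with 0.67 in control mice not past the test. Ccnd3 was higher by 0.98 in RbpjiΔEC and 1.22 in control mice, but by 0.07 in RbpjiΔEC and 0.16 in control mice and not called with the mean of all its probe sets. Cdk2, the partner of cyclin E, was lower, with differences of −0.60 in RbpjiΔEC and −0.71 in control mice. It lost both calls with median centring and with the deposited log2 values, where it differed by −0.08 in RbpjiΔEC and −0.35 in control mice.

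CDK inhibitors were mostly higher under CCR2+. Of 7 measured, 5 were higher and 1 lower in each genotype, which is 85.7% called, beside 39.1% of all genes in RbpjiΔEC mice and 40.8% in control mice. Cdkn2b, which encodes p15 and blocks Cdk4 and Cdk6, read 10.98, 10.61, 10.37 and 10.80 in the CCR2+ RbpjiΔEC arrays and 7.11, 7.89, 7.25 and 7.09 in the CCR2- RbpjiΔEC arrays, a difference of 3.36 (SE 0.20, limma adjusted p = 7.86e-10), and differed by 3.18 in control mice (limma adjusted p = 1.61e-09). Cdkn1a, the p21 gene, differed by 2.40 in RbpjiΔEC and 2.25 in control mice, and Cdkn1c, the p57 gene, by 2.19 in RbpjiΔEC and 2.31 in control mice. These groups were far apart, and the calls of Cdkn2b, Cdkn1a and Cdkn1c held in every other setting run. Cdkn1b, the p27 gene, was lower, with differences of −0.67 in RbpjiΔEC and −0.79 in control mice, calls that were lost with median centring and with the deposited log2 values. None of the 7 was called between the genotypes, where Cdkn1c had the highest estimates, 0.23 under CCR2+ and 0.34 under CCR2-.

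**Figure D5:**
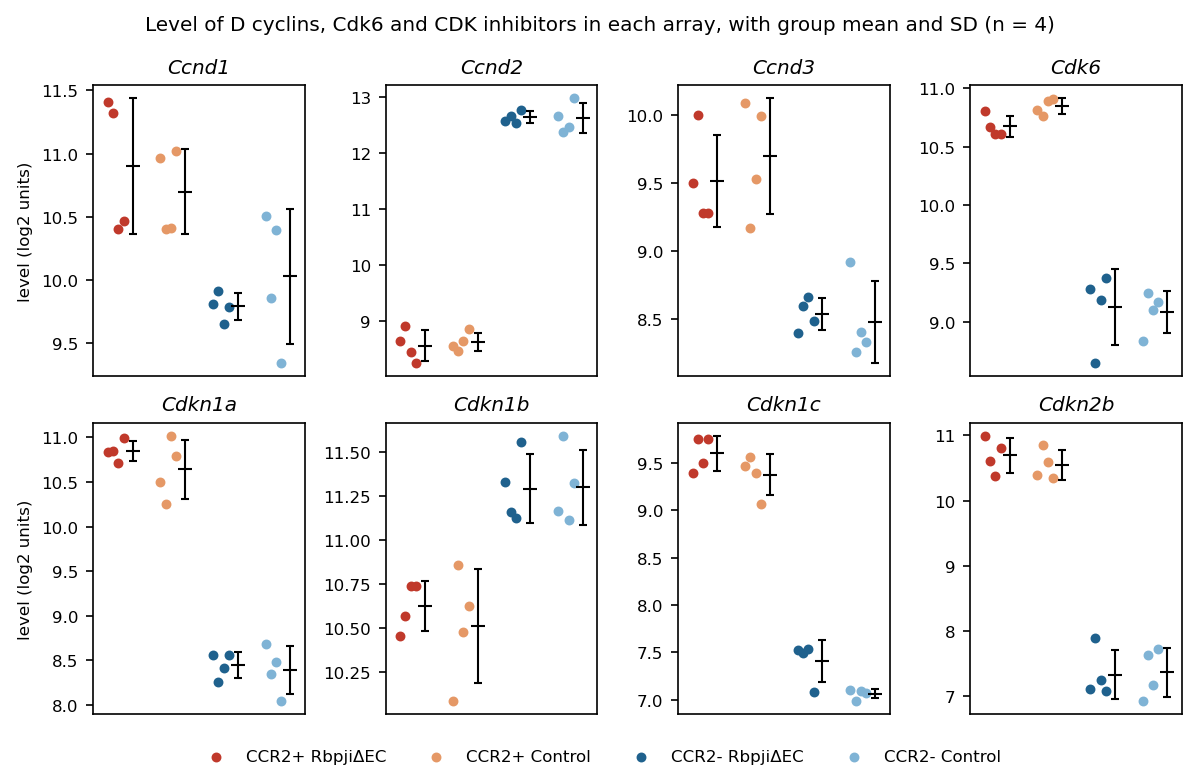
Log2 level of 3 D cyclins, Cdk6 and 4 CDK inhibitors in each of the 16 arrays (vertical axis, with its own scale in each panel), grouped as CCR2+ RbpjiΔEC, CCR2+ Control, CCR2- RbpjiΔEC and CCR2- Control. Points are arrays and black bars the group mean and SD (n = 4); Ccnd2 is lower and Cdkn1a, Cdkn1c and Cdkn2b are higher under CCR2+ with no overlap.

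E2F and Rb family genes were called at a share near that of all genes. Of 16 measured, 2 were higher and 5 lower under CCR2+ in RbpjiΔEC mice, and 2 higher and 6 lower in control mice, which is 43.8% and 50% called, beside 39.1% and 40.8% of all genes. E2f2, an activating E2F, read 7.15, 7.35, 7.21 and 7.21 in the CCR2+ RbpjiΔEC arrays and 9.60, 9.32, 9.23 and 9.67 in the CCR2- RbpjiΔEC arrays, with differences of −2.22 (SE 0.12, limma adjusted p = 2.16e-10) there and −2.36 in control mice (limma adjusted p = 9.76e-11). E2f3 was higher by 0.87 in RbpjiΔEC and 0.65 in control mice. E2f1 was higher by 0.49 in RbpjiΔEC and 0.53 in control mice with calls that ended when 1 array was left out in 11 and 5 of 16 cases. Rb1, the retinoblastoma gene, was lower, with differences of −0.96 in RbpjiΔEC and −0.94 in control mice, and its calls ended with the deposited log2 values. Its control call also ended with median centring (−0.51, limma adjusted p = 0.056).

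Other replication and mitotic genes held a few large differences, led by Cdc7 and Espl1. Of 27 other replication genes 2 were higher and 11 lower in RbpjiΔEC mice, and 1 higher and 10 lower in control mice, which is 48.1% and 40.7% called, beside the 39.1% and 40.8% of all genes. Cdc7, the kinase that fires origins, read 8.28, 7.77, 7.46 and 7.54 in the CCR2+ RbpjiΔEC arrays and 10.34, 10.22, 10.19 and 10.08 in the CCR2- RbpjiΔEC arrays, and differed by −2.45 in both genotypes (SE 0.21 each, limma adjusted p = 4.73e-08 and 4.58e-08). With the mean of all its probe sets the Cdc7 difference was −1.30 in both genotypes and still called. Dut, which removes dUTP, was lower, with differences of −1.26 in RbpjiΔEC and −1.09 in control mice, and Pola1, of the priming polymerase, was higher by 1.05 in RbpjiΔEC and 1.21 in control mice. Of 33 other mitotic genes 2 were higher and 6 lower in each genotype (24.2% called in each). Espl1, which encodes separase, read 10.50, 10.52, 10.13 and 9.93 in the CCR2+ RbpjiΔEC arrays and 7.58, 7.80, 7.74 and 7.86 in the CCR2- RbpjiΔEC arrays, a difference of 2.52 (limma adjusted p = 3.92e-10), and 2.90 in control mice. Cdc25b, the phosphatase that activates Cdk1, was lower, with differences of −2.26 in RbpjiΔEC and −2.19 in control mice, as was Nek2, a centrosome kinase, with −0.87 in RbpjiΔEC and −1.30 in control mice, and Anln, anillin of the cleavage furrow, was higher by 1.16 in RbpjiΔEC and 1.03 in control mice. The RbpjiΔEC call of Nek2 ended with the deposited log2 values (−0.54, adjusted p = 0.0581), and its control difference was −0.67 with the mean of its probe sets.

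Regulators of macrophage proliferation were mostly higher under CCR2+, as the macrophage markers were. Of 11 measured, 9 were higher and 1 lower under CCR2+ in each genotype, which is 90.9% called, beside 39.1% of all genes in RbpjiΔEC mice and 40.8% in control mice. Gata6 read 11.78 to 12.09 in the CCR2+ RbpjiΔEC arrays and 7.15 to 8.40 in the CCR2- RbpjiΔEC arrays, and Csf1r, the receptor of the growth factor Csf1, differed by 3.69 in RbpjiΔEC and 2.98 in control mice. Maf, whose loss is known to release macrophages into division, differed by 4.36 in RbpjiΔEC and 3.89 in control mice, while Myc, a driver of growth and division, was lower, with differences of −1.98 in RbpjiΔEC and −1.66 in control mice (limma adjusted p = 9.88e-06 and 6.18e-05, in that order). No gene of these lists passed the test between RbpjiΔEC and control arrays under either label.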

How the data were processed

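The deposited values were linear probe set intensities of 16 Affymetrix mouse arrays, with the authors' normalization not stated in the labels or the file. The log2 intensities were quantile normalized over the 16 arrays. Of 45101 probe sets, 34958 had 1 gene symbol in the platform annotation, 932 had several and 9211 were not listed, and the probe set with the highest mean stood for each of 18194 genes. A model with 4 group means was fitted with limma 3.58.1 in R 4.3.3, with 2-sided p-values adjusted by Benjamini and Hochberg's method across the 18194 genes and called under 0.05. Tested were the genotype difference (RbpjiΔEC minus control) under each label, the label difference (CCR2+ minus CCR2-) in each genotype, and their interaction. Groups and replicate numbers came from the sample labels. The analysis was tested on simulated data.

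The members, the other gene lists and the tests were chosen with earlier results of these data known. All members could be named. Of each other list, called genes were named, at most 3 a direction by size, or else the gene of smallest p, with Ccr2, Gata6, Adgre1, Csf1r, Myc, Cd79a and Epcam always allowed. Ms4a1 was added after its values were seen. Alternatives were median centring, the deposited log2 values, normalization within each label, a filter on dim genes, the mean of all probe sets, a trended robust variance, array weights, pairwise fits, a replicate block, leaving out each array, and leaving out CCR2- Control 1 and 3 together. After seeing the data, both other scalings were also run without CCR2+ Control 4. Promoter sequences were from RefSeq.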

Additional observations from a re-analysis of the deposited data

Results flagged for a closer look

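In 6 of 156 groups of 4 arrays, 1 array of a member lay far from the other 3 (a gap past Dixon's critical value), where chance alone would give about 1 in 20. In the CCR2+ Control group, Mcm7 (11.57) and Rrm1 (10.09) were far above the others in the fourth array, the array that was highest in most members. In the CCR2- Control group, Mcm2 (9.88) and Cdca3 (8.67), a mitotic entry gene, were far above the others in the fourth array. Cdc20 was far above the others in the second CCR2+ RbpjiΔEC array (8.66), and Ccne2 was far below them in the third CCR2- RbpjiΔEC array (8.69).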

How the results depend on the processing

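No member was called between the genotypes or in the interaction under any setting run. Single genes outside the list were called between the genotypes: under CCR2+ 1 gene with the filter on dim genes, 2 with the mean of all probe sets, 1 with array weights, 1 with the replicate block and 0 to 2 without 1 array, and under CCR2- 1 without CCR2- Control 1 and 3 and 0 to 1 without 1 array. That pair left out also gave 1 gene in the interaction. Between the labels in RbpjiΔEC mice, members called were 2 higher and 3 lower with median centring (19.4% and 15.6% of all genes). With the deposited log2 values they were 6 higher and 3 lower (31.4% and 6.56% of all genes), with a median of 0.095, against 0.23 over all genes. The replicate block gave 2 higher and 10 lower (18.2% and 21.3% of all genes), with Cdc6 and Mcm3 added. Median centring without CCR2+ Control 4 gave 2 higher and 7 lower (19.4% and 15.3% of all genes). The deposited log2 values without that array gave 7 higher and 3 lower (31.1% and 6.52% of all genes), with a median of 0.095, against 0.23 over all genes. Without 1 array 0 to 1 were higher and 7 to 13 lower, where 6507 to 7312 of all genes were called in either direction. In control mice the lower count was 3 with median centring (14.3% of all genes) and 1 with the deposited log2 values (9.49% of all genes). It was 4, with 1 higher, without CCR2- Control 1 and 3 (16.8% of all genes lower and 16.1% higher). The replicate block gave 9 lower (21.6% of all genes), with Mcm3 and Cdca8 added. Without 1 array 4 to 15 were lower, where 6836 to 7563 of all genes were called in either direction. The interaction median was 0.30 with the deposited log2 values without CCR2+ Control 4. Signs of estimates that did not pass the test turned in these cases. Under CCR2+, Top2a was 0.13, 0.13 and 0.18 without CCR2+ Control 4 in the 3 scalings (−0.55 to 0.13 without 1 array), and Uhrf1 was 0.020 with the deposited log2 values without it. Under CCR2-, Bub1 and Mki67 were −0.0027 and −0.069 with the deposited log2 values, with or without that array, −0.0039 and −0.10 without CCR2- RbpjiΔEC 4, and Mki67 was −0.094 without CCR2- Control 2 (up to 0.31 without another array). In the interaction, Mki67 was −0.16 with array weights and −0.094 without CCR2- RbpjiΔEC 2 (up to 0.31 without another array), and Cdc6 and Bub1 were 0.053 and 0.11 with the deposited log2 values without CCR2+ Control 4. Where an array or a pair was left out the number of arrays also fell, and otherwise the cause was not tested. The labels do not say what a replicate number shares, and not every pair of same-numbered arrays correlated over 0.1 in its deviations, so the numbers were not taken as pairs. These correlations were −0.38 to 0.15 between genotypes under CCR2+, −0.096 to 0.19 under CCR2-, 0.04 to 0.24 between labels in RbpjiΔEC mice and −0.03 to 0.40 in control mice. Arrays correlated best with their own number in 0, 2, 3 and 3 of 4 cases in that order, a hint of pairing between the labels from the data and not from the design. Normalization within each label gave no label comparison, and pairwise fits gave no interaction. No setting reversed a call. With 4 arrays a group, the most variable members had intervals over 1 log2 unit wide. Of the 39 members, 4 had a group mean within 1 log2 unit of the trp control.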
